A study of Mus musculus with 20 samples.

Results

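The leptin receptor gene Lepr and the genes of its trafficking partners, Leprot and Leprotl1, were read in mouse bone marrow stem and progenitor cells that had been sorted by the leptin receptor on their surface. These 3 members were taken by name from the 55573 genes of the count tables, with Ensembl identifiers paired to symbols through GENCODE M21, and all 3 passed the filter on low counts. Hematopoietic stem cells (HSC; lineage-depleted, Sca-1+ Kit+, CD150+ CD48-) and multipotent progenitors (MPP; the same but CD150- CD48-) of C57BL/6 mice aged 7 to 9 weeks were each split by an antibody to surface leptin receptor into Lepr+ and Lepr- cells. Each of the resulting 4 groups had 5 libraries, with 2 mice pooled for each replicate and 1000 to 8000 cells for each library. No transgene or treatment is named for any group, and no library holds cells of a single mouse. The sort read the receptor protein, whereas the values below are mRNA, so the level of Lepr mRNA was not used to make the groups.

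The leptin receptor is a class I cytokine receptor that signals through JAK2 and STAT3 when the fat hormone leptin binds. Its surface amount depends on trafficking as well as on mRNA: Leprot (endospanin 1) and Leprotl1 (endospanin 2), small membrane proteins of the endosome and Golgi related to yeast Vps55, lower the number of receptors at the surface. In bone marrow Lepr is best known as a mark of perivascular stromal cells that make Cxcl12 and stem cell factor, and it has also been studied on a share of the blood-forming cells themselves.

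Lepr, with the identifier ENSMUSG00000057722.17, occupies bases 101717404 to 101815352 of chromosome 4 in GRCm38, on the plus strand. Leprot (ENSMUSG00000035212.14) lies upstream on the same strand, from 101647718 to 101659364, and ends 58039 bases before Lepr begins. Leprotl1 (ENSMUSG00000031513.8) is on chromosome 8 from 34135572 to 34147033 on the minus strand. The 3 genes do not overlap one another in this annotation.

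The annotation gives Lepr 3 complete coding transcripts that share 2667 coding bases and then part. They are shown because the counts are summed per gene and cannot tell them apart, while only the long form carries the full intracellular part that binds STAT3. The last 30 shared coding bases are in lower case and the first bases of each transcript's own end are in capitals, all on the plus strand of GRCm38.
Lepr-201: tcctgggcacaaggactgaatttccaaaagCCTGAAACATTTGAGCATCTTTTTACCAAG
Lepr-202: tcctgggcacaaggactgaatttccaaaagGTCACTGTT
Lepr-203: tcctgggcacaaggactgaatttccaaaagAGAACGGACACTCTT
Lepr-201, the long form, has 1162 codons, against 892 in Lepr-202 and 894 in Lepr-203. Its own end lies in another exon, which starts at base 101814448, whereas that of Lepr-202 runs straight on from base 101792070 in the same exon.

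Leprot and Leprotl1 are close relatives, with 393 coding bases each in the transcripts compared, of which 274 (69.7%) are identical. The pair is shown over coding bases 301 to 390, counted from the start codon, to make plain whether reads of one could be counted for the other. Capitals mark the 23 of 90 bases that differ, the other 67 being the same.
Leprot: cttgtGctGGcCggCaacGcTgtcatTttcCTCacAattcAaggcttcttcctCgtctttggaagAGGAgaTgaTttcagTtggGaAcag
Leprotl1: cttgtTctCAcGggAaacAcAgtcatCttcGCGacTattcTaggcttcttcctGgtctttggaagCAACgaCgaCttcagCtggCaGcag
The longest run shared by the transcripts was 12 bases, so a read of either gene meets differences within a short distance. Of the stretches of 50 bases in Leprotl1 none occurred in a transcript of another gene, and in Leprot 39 of 1897 did, all of them in the pseudogene Gm5548, which received 13 counts over all 20 libraries. In Lepr 177 of 7043 such stretches (2.51%) occurred elsewhere, 115 of them in the coding sequence and shared with the neighbouring pseudogene Gm12797, which had 0 counts. Lepr counts could therefore lose a small share of their reads to these copies.

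The libraries held 9532993 to 31589794 counts in genes, with a further 21.4% to 38.7% of read pairs assigned to no gene. Lepr+ MPP replicates 4 and 5 and Lepr+ HSC replicate 5 were taken as the 3 libraries least like their own group, by a measure that is not shown here. Several results that rest on them are given with and without them. Kit, the stem cell factor receptor, was read at 368.5 to 1262 CPM over the 20 libraries. The pan-leukocyte gene Ptprc was read at 33.2 to 277.9 CPM, lowest in Lepr+ MPP replicate 4. Both were read in all 4 groups, so they cannot show the gates on CD150, CD48 or surface leptin receptor. CPM are counts scaled to library size, here with edgeR's TMM factors.

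Lepr mRNA was low or absent in Lepr- cells and very uneven in Lepr+ cells. In Lepr- HSC replicates 1 to 5 it had 0, 1, 0, 0 and 2 counts, and in Lepr- MPP 16, 0, 0, 11 and 0. In Lepr+ HSC the counts were 9, 10, 275, 1 and 89, and in Lepr+ MPP they were 8, 723, 982, 353 and 175. Of the 2655 Lepr counts in the study 84.4% came from Lepr+ MPP and 14.5% from Lepr+ HSC.

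On the CPM scale the 5 Lepr+ MPP libraries read 0.261, 27.1, 30.5, 38.8 and 19.7. Replicate 1 thus lay far below the other four and below Lepr- MPP replicates 1 and 4, which read 0.605 and 0.767. The 5 Lepr+ HSC libraries read 0.356, 0.514, 7.98, 0.0759 and 9.36. Replicates 3 and 5 were high and replicate 4 lay below Lepr- HSC replicate 5, at 0.165, so the Lepr+ and Lepr- groups overlapped in each cell type. A library with a count of 0 can still hold Lepr at up to 3 counts, which is 0.101 CPM in Lepr- HSC replicate 1, counting error only.

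**Figure D1:**
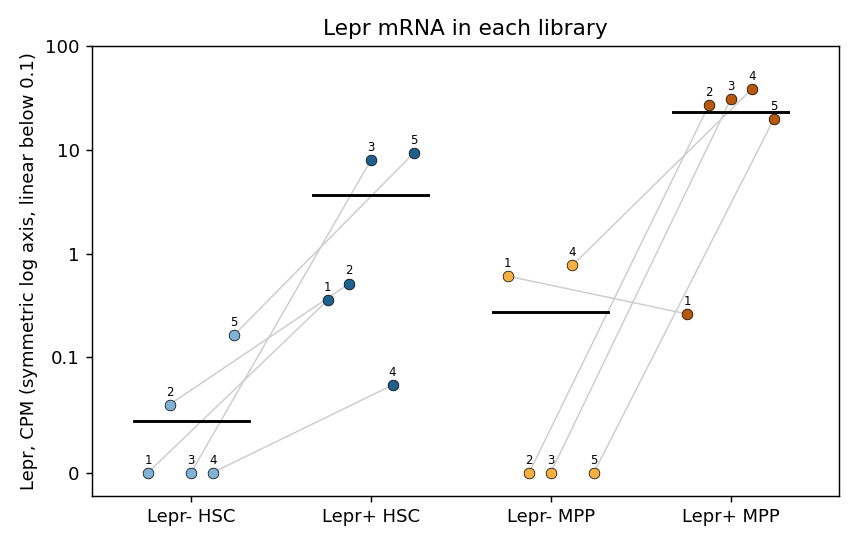
Lepr in CPM (symmetric log axis, linear below 0.1) in each library, by group; numbers are replicates, grey lines join Lepr- and Lepr+ libraries of the same replicate, and black bars are group means. Lepr+ MPP replicates 2 to 5 lie between 19.7 and 38.8 CPM while replicate 1 lies at 0.261, and 6 libraries, all Lepr-, are at 0.

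The group means of Lepr were 0.0448 ± 0.0718 CPM in Lepr- HSC, 0.274 ± 0.380 in Lepr- MPP, 3.66 ± 4.60 in Lepr+ HSC and 23.3 ± 14.6 in Lepr+ MPP (SD, n = 5 each). The SD exceeded the mean in every group but Lepr+ MPP. Without the 3 libraries least like their group the means were 2.23 ± 3.84 CPM in Lepr+ HSC (n = 4) and 19.3 ± 16.6 in Lepr+ MPP (n = 3). Summed over replicates, Lepr+ HSC had 384 counts against 3 in Lepr- HSC, a ratio of 123 after scaling to library size with a 95% counting interval of 41.6 to 597, and replicate 3 alone gave 71.6% of those 384. Lepr+ MPP had 2241 counts against 27, a ratio of 87.1 (59.7 to 132). These intervals cover counting error only, and the spread between replicates was far larger.

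Against that spread no difference in Lepr passed the test. In edgeR's quasi-likelihood test over 16509 genes, Lepr was higher in Lepr+ than in Lepr- MPP by 6.41 ± 1.62 on the log2 scale (SE; 95% interval 3.02 to 9.80) with an adjusted p of 0.145. It was 6.28 within the replicates dated to June in the file names (1, 3 and 5) and 6.44 within those dated to July (2 and 4). The fitted difference in HSC had an adjusted p of 0.204, and its fitted size is no bound and depends on the prior count, since 3 counts stand on the Lepr- side. DESeq2, run as an alternative, did call Lepr in both cell types, with adjusted p 0.00441 in HSC and 0.000501 in MPP. By replicate, Lepr was higher in the Lepr+ library in 5 of 5 pairs of HSC and 4 of 5 pairs of MPP, the exception being replicate 1. An exact two-sided permutation test of mean log2 CPM gave p = 0.0159 in HSC and p = 0.0238 in MPP, each with an adjusted p of 0.143 over the 12 tests made on the members, and the smallest p that 5 against 5 libraries allow is 0.00794.

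The ordering of HSC and MPP was not settled either. Among Lepr+ cells Lepr was lower in HSC than in MPP by 2.67 ± 1.35 on the log2 scale in edgeR, at an adjusted p of 0.686, and it was higher in HSC in 1 of 5 pairs. Among Lepr- cells, with 3 counts against 27, an exact permutation test gave p = 0.444. The Lepr+ against Lepr- change in MPP minus that in HSC was -0.04 on the log2 scale, at an adjusted p of 1.00 in edgeR. Its direction turned in limma voom, in the July libraries and without the 3 libraries least like their group.

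Stromal genes were read in the same libraries as Lepr. Cxcl12, the chemokine made by Lepr-marked stromal cells, stood at 8.64, 342.5, 393.7, 598.4 and 311.2 CPM in Lepr+ MPP replicates 1 to 5, against 0.209 to 2.89 in Lepr- MPP and 0 to 8.16 in Lepr- HSC. Lepr+ MPP replicate 1 was thus the lowest of its group in Cxcl12 as in Lepr. Adipoq, an adipocyte-lineage hormone gene that marrow stromal cells also express, read 1.24 CPM in replicate 1 and 19.1 to 39.1 in the other four, and the stromal and vascular genes Pdgfra and Cdh5 reached 7.95 and 36.1 CPM in the group. In Lepr- MPP both Adipoq and Pdgfra were at 0 in all 5 libraries, and Cdh5 was at 0 in 4 of 5.

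In Lepr+ HSC, Cxcl12 read 4.43, 41.9, 64.5, 0.304 and 42.7 CPM. Replicate 4 was lowest in both genes and replicate 3 was high in both, but replicate 2 had much Cxcl12 with little Lepr. Replicate 5 had the highest Lepr of the group, 9.36 CPM, with Adipoq at 0 and Pdgfra at 0.210 CPM. Lepr relative to Cxcl12 was steady in the Lepr+ MPP libraries that held most of it, at 7.91, 7.75, 6.48 and 6.32 Lepr counts per 100 Cxcl12 counts in replicates 2 to 5 and 3.02 in replicate 1. It ranged more widely in Lepr+ HSC, at 8.04, 1.23, 12.4 and 21.9 in replicates 1, 2, 3 and 5, while replicate 4 had 1 Lepr count against 4 of Cxcl12, too few for a ratio. In Lepr- MPP replicates 1 and 4 the counts of Lepr exceeded those of Cxcl12, with 16 against 6 and 11 against 3, so there Lepr was read with Adipoq and Pdgfra at 0 and little Cxcl12.

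**Figure D2:**
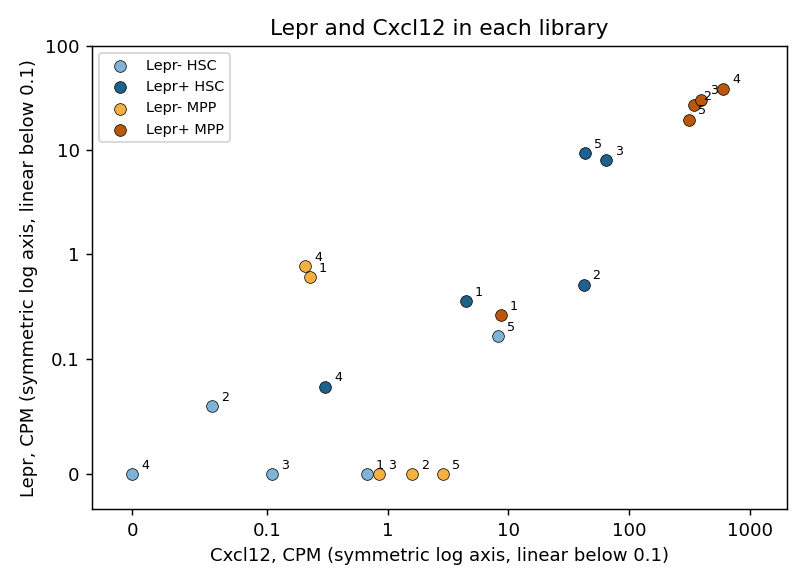
Lepr against Cxcl12 in CPM (both axes symmetric log, linear below 0.1), 1 point per library, coloured by group and numbered by replicate. Lepr+ MPP replicates 2 to 5 sit together at the upper right, and Lepr- MPP replicates 1 and 4 hold Lepr at 0.605 and 0.767 CPM with Cxcl12 under 0.3.

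The whole list of 24 stromal markers summed to 282.6 to 4319 CPM in Lepr+ MPP, 159.9 to 234.7 in Lepr- MPP, 101.7 to 326.5 in Lepr+ HSC and 87.3 to 318.5 in Lepr- HSC. All 24 had a count in the 2 Lepr+ groups, 23 in Lepr- HSC, where Ebf3 was at 0, and 19 in Lepr- MPP, where Adipoq, Pdgfra, Ebf3, Lum and Grem1 were at 0. The part of stromal RNA in the Lepr values was not tested, and in such bulk samples more cells with the transcript and more transcript per cell cannot be told apart. Likeness to Lepr was taken as Pearson r of log2 CPM over the 20 libraries. The 5 closest genes were Ctsk (0.914), Snai2 (0.900), Il34 (0.887), Gpm6a (0.883) and Rspo2 (0.881). All averaged under 10 CPM in every group, except Gpm6a in Lepr+ MPP, at 45.7. Ctsk, Snai2, Il34 and Rspo2 averaged only 3.45 to 4.43 CPM there. After group means were taken out, Ctsk, a collagen-degrading protease, was again first (0.793), and Pdgfra was among the 5 (0.734). These are descriptions over libraries that share replicate mice and, for low genes, many zeros.

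Leprot was the steadiest and, per length, the most abundant of the 3. Its CPM in replicates 1 to 5 were 86.9, 89.1, 86.5, 116.9 and 107.4 in Lepr- HSC and 89.3, 98.2, 93.4, 132.4 and 128.4 in Lepr+ HSC. In Lepr- MPP they were 86.4, 84.6, 91.1, 139.6 and 77.4, and in Lepr+ MPP 88.6, 95.5, 80.7, 112.5 and 72.9. The groups overlapped throughout, replicate 4 was the highest library of each, and the whole range over 20 libraries was 1.92-fold. The SD of log2 CPM within groups was 0.264 for Leprot, smaller than that of all but 4.28% of the 13054 protein-coding genes tested, where the median was 0.686.

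Leprotl1 was less even. It read 44.1, 64.2, 43.3, 94.2 and 67.2 CPM in Lepr- HSC and 55.6, 73.8, 43.7, 94.3 and 137.4 in Lepr+ HSC. In Lepr- MPP it read 53.3, 67.7, 59.3, 114.4 and 63.0, and in Lepr+ MPP 56.7, 68.4, 63.8, 155.8 and 106.0. Replicates 4 and 5 held the high values: replicates 1 to 3 spanned 43.3 to 73.8 CPM over the 4 groups and replicates 4 and 5 spanned 63.0 to 155.8. Those replicates were also the shallower ones, with 9532993 to 15052009 counts in genes against 18174638 to 31589794, and more of their read pairs were assigned to no gene, 30.05% to 38.7% against 21.4% to 30.4%. The part of depth in this difference was not tested.

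**Figure D3:**
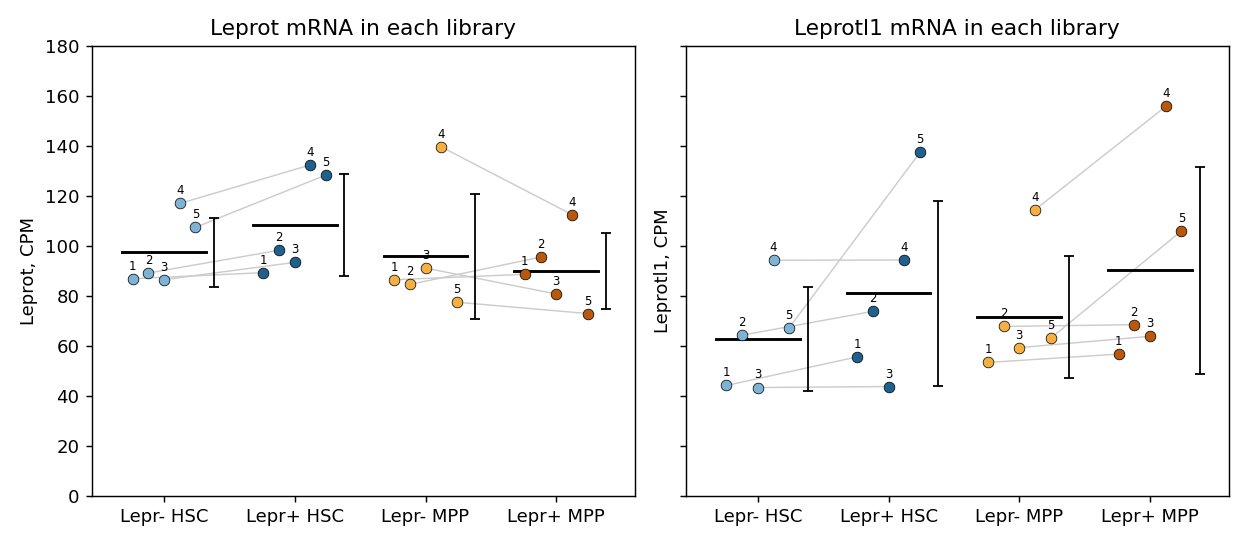
Leprot (left) and Leprotl1 (right) in CPM in each library by group; numbers are replicates, grey lines join the Lepr- and Lepr+ libraries of the same replicate, black bars are means and error bars SD (n = 5). Leprot lies between 72.9 and 139.6 CPM and Leprotl1 between 43.3 and 155.8, with overlapping groups for each.

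Per kilobase of exon, which allows levels of different genes to be compared, Leprot averaged 51.3 CPM in Lepr- HSC, 57.1 in Lepr+ HSC, 50.5 in Lepr- MPP and 47.4 in Lepr+ MPP. Leprotl1 averaged 21.7, 28.1, 24.8 and 31.3 in the same order, and Lepr 0.00635, 0.519, 0.0389 and 3.30. Leprot exceeded Leprotl1 in 20 of 20 libraries on this scale, by a median of 2.11-fold, and Lepr was below Leprotl1 in 20 of 20. Leprot stood above 94.3% to 95.2% of the annotated protein-coding genes in the 4 groups, Leprotl1 above 87.3% to 91.4%, and Lepr above 33.98% in Lepr- HSC but 62.2% in Lepr+ MPP. The mRNA of both partners was thus read in every library, also of cells sorted as lacking the surface receptor.

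In edgeR's unpaired test neither partner differed between Lepr+ and Lepr- cells beyond the spread. For Leprot the Lepr+ against Lepr- difference was 0.15 ± 0.19 on the log2 scale in HSC (95% interval -0.23 to 0.54) and -0.09 ± 0.19 in MPP (-0.48 to 0.30) in edgeR. For Leprotl1 it was 0.37 ± 0.34 in HSC (-0.33 to 1.07) and 0.33 ± 0.34 in MPP (-0.37 to 1.03). The adjusted p was 1.00 for all 4 in edgeR. These intervals leave room for a change larger than the SD between replicates, so they do not show that the levels were equal. Within June and July the Lepr+ against Lepr- difference of Leprot was 0.15 and 0.20 in HSC and -0.09 and -0.11 in MPP, and that of Leprotl1 was 0.61 and 0.12 in HSC and 0.34 and 0.30 in MPP. Each direction was thus the same in both months.

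Within replicates the small differences had a common sign in HSC. Leprot was higher in the Lepr+ library in 5 of 5 pairs of HSC and 2 of 5 pairs of MPP, and Leprotl1 in 5 of 5 pairs of each cell type. The paired differences in log2 CPM averaged 0.15 (SD 0.08) for Leprot in HSC and -0.07 (SD 0.19) in MPP. For Leprotl1 they averaged 0.32 (SD 0.42) in HSC and 0.28 (SD 0.31) in MPP. A sign-flip test over 5 pairs, exact and two-sided, cannot go below p = 0.0625, the value those 3 comparisons had, and unpaired exact permutation tests gave p = 0.349 for Leprot in HSC and 0.421 and 0.413 for Leprotl1 in HSC and MPP. Without the 3 libraries least like their group the Leprotl1 difference in MPP turned to -0.18, and the group means were 63.0 ± 5.93 CPM in Lepr+ MPP (n = 3) and 71.5 ± 24.5 in Lepr- MPP (n = 5).

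In edgeR's unpaired test HSC and MPP did not separate by the partners either. Among Lepr- cells the HSC against MPP difference was 0.02 ± 0.19 on the log2 scale for Leprot (-0.36 to 0.41) and -0.19 ± 0.34 for Leprotl1 (-0.89 to 0.51) in edgeR. Among Lepr+ cells it was 0.27 ± 0.19 for Leprot (-0.12 to 0.65), higher in HSC in 5 of 5 pairs, and -0.15 ± 0.34 for Leprotl1 (-0.86 to 0.55), higher in 2 of 5. The change with surface receptor did not differ detectably between the cell types. Taken as the change in MPP minus that in HSC, the difference was -0.24 ± 0.26 for Leprot and -0.04 ± 0.47 for Leprotl1.

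**Figure D4:**
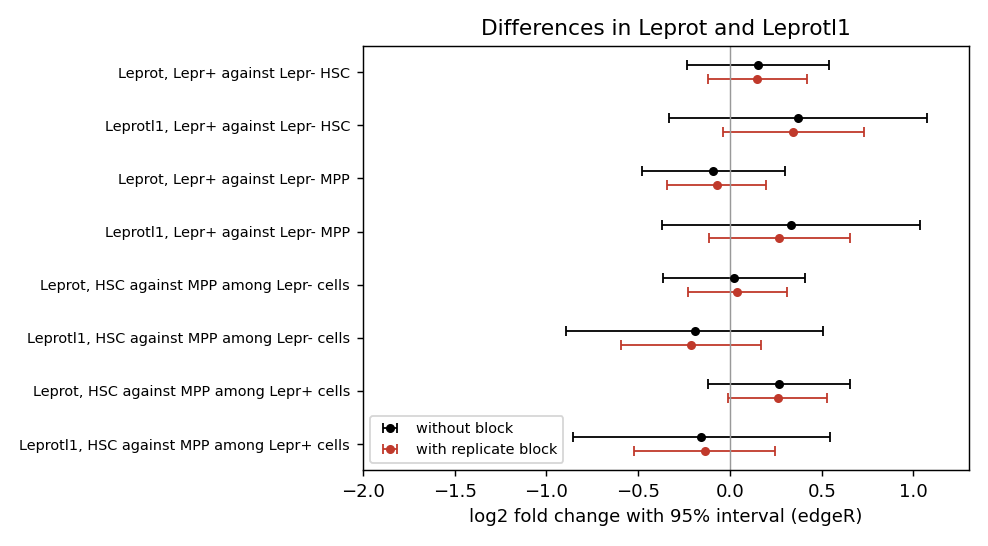
Log2 fold changes of Leprot and Leprotl1 with 95% intervals in the 4 comparisons, from edgeR without a block (black) and with the replicate number as a block (red). Every interval contains 0, and those of Leprotl1 are wider than those of Leprot.

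Of the 3 members 0 were called in any of the 4 comparisons or in the difference between them in edgeR. The share of all 16509 genes called was 0.103% for Lepr+ against Lepr- HSC, 0.2% for Lepr+ against Lepr- MPP, 2.73% for HSC against MPP among Lepr- cells, 0.466% among Lepr+ cells and 0.0% for the difference. At an unadjusted p under 0.05 edgeR had 1 member, Lepr, in each of the Lepr+ against Lepr- comparisons and 0 elsewhere. Of all 16509 genes it had 1149, 728, 2026 and 1302 under that value in the 4 comparisons, in the order above, and 529 for the difference. DESeq2 called 1.1%, 1.3%, 5.11% and 2.04% of genes in the 4 comparisons, and among the members Lepr in the former pair. Limma voom called 0.109%, 0.357%, 3.96% and 0.763% of genes and 0 members. With calls this rare in HSC and MPP, the absence of calls for Leprot and Leprotl1 is what most genes showed.

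The ratio of the partners within a library needs no scaling between libraries. Leprotl1 had 0.632 ± 0.133 counts per Leprot count in Lepr- HSC, 0.725 ± 0.222 in Lepr+ HSC, 0.740 ± 0.0983 in Lepr- MPP and 0.997 ± 0.390 in Lepr+ MPP (SD, n = 5). The ratio was above 1 in 3 libraries: 1.38 and 1.45 in Lepr+ MPP replicates 4 and 5 and 1.07 in Lepr+ HSC replicate 5. They are the same 3 that were taken as least like their group. Without them the means of Lepr+ MPP and Lepr+ HSC were 0.716 ± 0.0754 (n = 3) and 0.638 ± 0.126 (n = 4). Leaving out the highest ratios of a group lowers its mean in any case, so these means are no check on the groups. Among Lepr- cells, where all 5 libraries remained, the ratio was lower in HSC than in MPP in 5 of 5 pairs. The paired differences averaged -0.24 on the log2 scale (SD 0.15). An exact two-sided sign-flip permutation test over these 5 pairs gave p = 0.0625, the smallest value that 5 pairs allow. The adjusted p of this exact sign-flip permutation test was 0.25 over the 4 comparisons of the ratio. The unpaired exact permutation test gave p = 0.183 and an adjusted p of 0.381 over the same 4 comparisons. The other 3 comparisons had adjusted p-values of 0.381 to 0.532 in the unpaired exact permutation test.

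**Figure D5:**
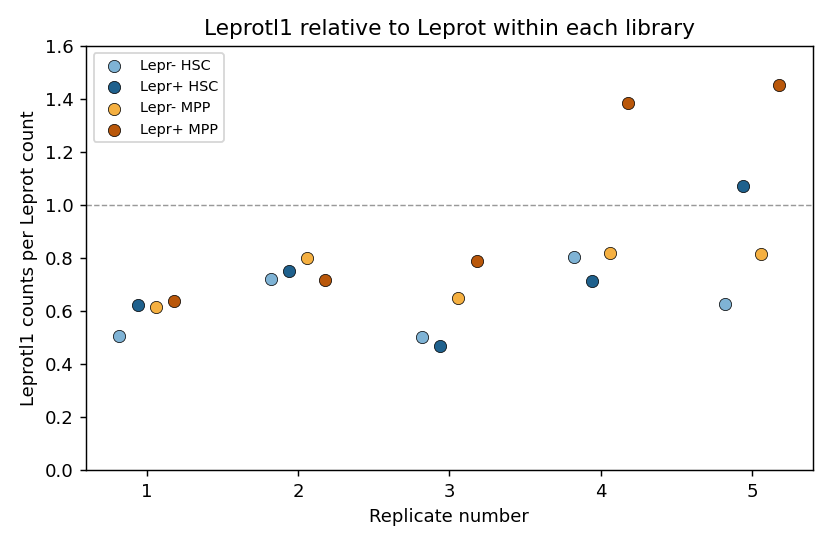
Leprotl1 counts per Leprot count in each library against replicate number, coloured by group; the dashed line marks equal counts. The 3 points above the line are Lepr+ MPP replicates 4 and 5 and Lepr+ HSC replicate 5, and the other 17 lie between 0.468 and 0.820.

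Leprot and Leprotl1 varied together more than either varied with Lepr. Over the 20 libraries the Pearson r of log2 CPM was 0.608 between the partners (0.730 after group means were taken out), 0.0298 between Lepr and Leprot and 0.423 between Lepr and Leprotl1, as descriptions of libraries that share mice and depth. The genes most like Leprot were Bpnt1 (r 0.888) and Impa1 (0.851), which encode phosphatases of nucleotide and inositol metabolism, with Cdc42se1 (0.852), Ngdn (0.836) and Ghitm (0.832). Those most like Leprotl1 were Ndfip1 (0.950), an adaptor of NEDD4-family ubiquitin ligases at endosomes and Golgi, Ninj1 (0.942), the calcium channel gene Orai1 (0.934), Ginm1 (0.931) and Atraid (0.931). No gene was among the first 5 of more than 1 member.

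The neighbours of Lepr and Leprot on chromosome 4 were read as well. Dnajc6, a co-chaperone that uncoats clathrin vesicles, ends at base 101642799 just before Leprot, and B020004J07Rik, the nearest annotated protein-coding gene beyond Lepr, had 0 counts in all libraries. Pde4b, a cAMP phosphodiesterase 272191 bases beyond Lepr, is the nearest protein-coding gene on that side with any count. It was lower in Lepr- HSC, at 69.97 ± 10.8 CPM, than in Lepr- MPP, at 142.0 ± 10.3, a difference of -1.02 ± 0.20 on the log2 scale with an adjusted p of 0.00529 in edgeR, which was lost without replicate 2 (0.0596). Dnajc6 averaged 6.73 to 25.3 CPM over the groups and was not called. Beside Leprotl1 on chromosome 8 lie Mboat4, which acylates ghrelin and averaged 0.0253 to 2.13 CPM, and Saraf, a regulator of store-operated calcium entry at 353.7 to 495.8 CPM. Saraf was lower in Lepr- HSC than in Lepr- MPP by 0.35 on the log2 scale and was not called in edgeR (adjusted p 0.563). It was called with the replicate number as a block (adjusted p 0.0283), where that fit called 7.5% of all genes. Genes further out on chromosome 8 are not described here, so these are not all the calls near the members.

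The sequence just before the first base of Leprot is shown because Leprot and Lepr are often described as sharing a promoter. Their annotated starts are apart here and their levels differ in every library, but promoter use was not tested. The sequence shown is chr4:101647533-101647717 on the plus strand of GRCm38.p6, from RefSeq, 185 bases with the 5 matches to GGGCGG in capitals.
Leprot upstream: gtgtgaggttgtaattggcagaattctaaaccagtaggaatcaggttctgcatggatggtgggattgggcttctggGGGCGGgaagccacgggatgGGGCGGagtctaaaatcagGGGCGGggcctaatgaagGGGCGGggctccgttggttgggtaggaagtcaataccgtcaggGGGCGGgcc
GGGCGG, the core of the box known for binding Sp1, was searched on both strands as GGGCGG and CCGCCC. At least 1 match was found in 21.8% of 32851 RefSeq windows of the same length and position, and 5 or more in 0.496%. The 2 windows listed for Lepr held 0 and 1 matches.

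Leptin itself and its signalling genes were described from a list of 26, of which 24 passed the filter. Lep, the hormone gene, had 0 counts in all 20 libraries. The most abundant per length were Jak1, Grb2 and Stat5b, at 53.8, 51.9 and 41.7 CPM per kilobase over all libraries, against 0.966 for Lepr. In edgeR 0 of 24 were called in any of the 4 comparisons, against backgrounds of 0.103%, 0.2%, 2.73% and 0.466%. At an unadjusted p under 0.05 there were 4 in HSC and 3 in MPP between Lepr+ and Lepr- cells, 4 between HSC and MPP among Lepr- cells and 0 among Lepr+ cells. Of all 16509 genes 1149, 728, 2026 and 1302 were under that value in the same comparisons. DESeq2 called 0, 1, 2 and 0 of the list, where it called 1.1%, 1.3%, 5.11% and 2.04% of all genes. Limma voom called 0 in each, where it called 0.109%, 0.357%, 3.96% and 0.763% of all genes.

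With the replicate number as a block, 4 of the 24 were called between Lepr- HSC and Lepr- MPP, where that fit called 7.5% of all genes. Socs2, a feedback inhibitor of cytokine signalling, was higher in HSC, at 27.9 ± 10.5 against 10.98 ± 5.87 CPM (adjusted p 0.022). Socs3, the inhibitor that leptin itself induces, was lower in HSC, at 3.22 ± 1.28 against 18.7 ± 9.34 CPM (adjusted p 0.017). Stat3 and Stat5b, transcription factors downstream of the receptor, were lower in HSC with adjusted p 0.00785 and 0.0215. Without the block the adjusted p-values of Socs2, Socs3, Stat3 and Stat5b were 0.0881, 0.0741, 0.187 and 0.525 in edgeR. The median log2 difference of the list in edgeR without the block was -0.19, with 6 of 24 positive, where the median of all genes was 0.01 and 50.5% were positive.

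Between Lepr+ and Lepr- cells the list's median was 0.14 in HSC (13 of 24 positive) and 0.06 in MPP (14 of 24), beside -0.00413 and 0.01 for all genes. Socs2 was higher in the Lepr+ library in 5 of 5 pairs of each cell type, by 0.84 ± 0.40 in HSC and 1.64 ± 0.40 in MPP on the log2 scale, with adjusted p 0.699 and 0.131 in edgeR. DESeq2 called it in MPP (adjusted p 0.00456), where that tool called 1.3% of all genes.

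Genes that sort, recycle or shed surface receptors formed a list of 41, all tested. Rab11a, the small GTPase of recycling endosomes, was higher in Lepr- HSC than in Lepr- MPP, at 228.4 ± 54.1 against 113.0 ± 16.5 CPM, by 1.01 ± 0.22 on the log2 scale (edgeR adjusted p 0.0107). Cltb, a clathrin light chain, was higher there too, at 81.9 ± 14.5 against 48.4 ± 9.96 CPM, by 0.76 ± 0.20 (edgeR adjusted p 0.0458). Each was higher in 5 of 5 pairs, and they were the 2 of 41 called in this comparison, where 2.73% of all genes were called. The calls were fragile: that of Cltb held in 2 of 15 fits with a library or replicate number left out, and that of Rab11a in 13 of 15, being lost without replicate 2 (adjusted p 0.144) and without replicate 3 (0.0543). Within June and July the differences were 0.96 and 1.04 for Rab11a and 0.69 and 0.81 for Cltb, not called in either month alone.

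With the replicate block 4 of the 41 were called in that comparison, where that fit called 7.5% of all genes, the further ones being Ap2s1, a subunit of the AP2 clathrin adaptor, and Snx3, a sorting nexin of the retromer, each higher in HSC (adjusted p 0.0053 and 0.0283). Among Lepr+ cells edgeR called 0 of 41 without the block and had 2 at an unadjusted p under 0.05. There DESeq2 called 1, beside 2.04% of all genes, and limma voom 0, beside 0.763%. With the block in edgeR Rab11a and Cltb were called, higher in HSC (adjusted p 0.00676 and 0.00581), where that fit called 1.77% of all genes. In Lepr+ against Lepr- HSC and MPP 0 of 41 were called by edgeR, by DESeq2 and by limma voom, with 1 and 0 at an unadjusted p under 0.05 in edgeR. Of all 16509 genes edgeR had 1149 in HSC and 728 in MPP under that value, and 1302 for HSC against MPP among Lepr+ cells. The most abundant members were Tmem50a, a relative of yeast Vps68, the partner of Vps55, with Snx3 and Ap2s1, at 209.95, 200.8 and 94.97 CPM per kilobase. Adam10 and Adam17, proteases that release receptor ectodomains, were at 41.7 and 8.67 CPM per kilobase.

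Class I cytokine receptors related to Lepr formed a list of 19, of which 16 were tested. Csf3r, the receptor of granulocyte colony-stimulating factor, was lower in Lepr- HSC than in Lepr- MPP, at 27.9 ± 18.6 against 163.0 ± 59.7 CPM, by -2.54 ± 0.53 on the log2 scale (edgeR adjusted p 0.00958) and in 5 of 5 pairs. It was the 1 call of the list by edgeR in that comparison, where 2.73% of all genes were called, and it was lost without replicate 3 (adjusted p 0.0917). Limma voom, which called 3.96% of all genes there, also called Epor. DESeq2, which called 5.11% of all genes there, also called Ghr. Among Lepr+ cells edgeR called 0 of 16 between HSC and MPP, with 5 at an unadjusted p under 0.05. There limma voom called Epor, beside 0.763% of all genes, and DESeq2 called Il27ra, beside 2.04%. Il11ra1, the interleukin 11 receptor, and Crlf2, a subunit of the receptor of thymic stromal lymphopoietin, were at 34.4 and 33.4 CPM per kilobase over all libraries, against 0.966 for Lepr. In edgeR 0 of 16 were called between Lepr+ and Lepr- cells, with 1 in HSC and 5 in MPP at an unadjusted p under 0.05. Of all 16509 genes edgeR had 1149 in HSC and 728 in MPP under that value, and 1302 for HSC against MPP among Lepr+ cells. DESeq2 called 0 in HSC and 2 in MPP, Il31ra and Osmr, where it called 1.1% and 1.3% of all genes. Limma voom called 0 in each. Of the 11 receptors of other metabolic hormones 8 were tested and 0 were called in the 4 comparisons by edgeR, DESeq2 or limma voom, with 0 at an unadjusted p under 0.05 in edgeR. The most abundant were the adiponectin receptors Adipor1 and Adipor2 and the glucocorticoid receptor Nr3c1, at 44.3, 18.1 and 10.3 CPM per kilobase.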

How the data were processed

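The authors deposited raw read-pair counts per gene, 1 table for each of 20 libraries. Per the labels' protocols and design text, SMART-Seq v4 cDNA went into Nextera XT libraries, which keep no strand. Per the submitters' processing notes, the build was GRCm38 and the tools were STAR 2.7.1a, HTSeq 0.11.2, cutadapt 2.1, FastQC 0.11.8 and DESeq2. The counting mode is not given in the sources used here. Of 55573 identifiers 55480 matched GENCODE M21. Depth is given with the data. Groups came from the labels.

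Differences were tested in edgeR 4.0.16 (R 4.3.3; TMM, filterByExpr with minimum count 10 and total 15, robust quasi-likelihood F tests, all 20 libraries, group only), with Benjamini-Hochberg adjustment over 16509 genes and a threshold of 0.05. The procedure was tested on simulated data. SE is the fold change over the square root of F. DESeq2 1.42.0, limma 3.58.1 voom, DESeq2 size factors, filters, libraries left out, months and a replicate block were alternatives. Single genes were also tested by exact permutation of mean log2 CPM (prior count 2).

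Each replicate number stands for 2 mice, and its 4 libraries carry 1 date in their names, so the numbers pair the libraries. Deviations from group means correlated with a median of 0.264 over 30 pairs of the same number (-0.0647 to 0.562) and -0.0857 over 120 of different numbers, and 15 of 20 libraries were closest to one of their own number.

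Named genes were the members, list genes that passed the threshold (at most 6) or were among the 3 highest per length, the nearest protein-coding neighbours (beyond Lepr also Pde4b, the nearest with a count, chosen after values were seen) with Jak1, the 5 genes most like each member, and Cxcl12, Adipoq, Pdgfra, Cdh5, Lep, Ptprc and Kit. Adam10, Adam17, Saraf's block value and the blocked and DESeq2 calls were added after their values were seen. Some results on list genes are not reported here. Members and lists were chosen with earlier results of these data known. The other marker lists are summed in the closing section.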

Additional observations from a re-analysis of the deposited data

Results flagged for a closer look

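Leprot in Lepr- MPP replicate 4 read 139.6 CPM, further from the other four libraries of its group (77.4 to 91.1) than a spread of 5 such values usually allows. Leprotl1 in the same library read 114.4 CPM, against 53.3 to 67.7 in the other four, and stood out in the same way. Chance alone sets apart about 1 in 20 such groups, and 16 groups were examined. Replicate 4 had the highest mean over the 4 groups for both genes, 125.4 and 114.7 CPM, and is 1 of the 2 shallower replicates. The cause was not tested.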

How the results depend on the processing

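No member changed its call with the filter, the size factors, limma voom, the replicate block, the months alone or any library left out. DESeq2 alone called Lepr, at log2 differences of 6.56 in HSC and 6.43 in MPP. Here and below, fitted Lepr values against the 3 counts of Lepr- HSC depend on the prior count and are neither exact sizes nor bounds. Lepr had no value in fits of only the groups compared for Lepr+ against Lepr- HSC and for HSC against MPP among Lepr- cells, where it fell below the filter. The difference between cell types is the Lepr+ against Lepr- change in MPP minus that in HSC, here and below. For Lepr it turned to 3.48 in the July libraries, 1.92 in limma voom and 0.37 without the 3 libraries least like their group. Leprot in HSC against MPP among Lepr- cells turned to -0.17 in July. Leprotl1 turned to 0.083 in HSC against MPP among Lepr+ cells in June and to 0.080 without the 3 libraries. It turned to -0.18 in Lepr+ against Lepr- MPP without the 3 libraries and to 0.17 for the difference between cell types in July. All 3 libraries were Lepr+, so the fit without them kept 5 libraries in each Lepr- group and broke the pairing. The cause was not tested.

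Leaving out a library or a replicate number moved Lepr within 5.49 to 7.64 (HSC), 5.93 to 7.30 (MPP), -4.25 to -1.73 (HSC against MPP, Lepr-), -3.42 to -2.10 (Lepr+) and -1.23 to 0.98 (difference). Leprot stayed within 0.07 to 0.23, -0.18 to 0.083, -0.10 to 0.19, 0.12 to 0.36 and -0.34 to -0.07 in that order, and Leprotl1 within 0.10 to 0.56, 0.04 to 0.56, -0.39 to 0.038, -0.43 to 0.13 and -0.33 to 0.24. Genes called ranged over 0 to 24, 0 to 49, 152 to 462, 6 to 94 and 0 to 0.

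Over all genes, Lepr+ against Lepr- HSC had 17 calls, 182 in DESeq2, 169 with the replicate block, 8 without the 3 libraries and 0 in July, in June and with only those groups (426, 1031 and 731 at an unadjusted p under 0.05). Lepr+ against Lepr- MPP had 33, with 214 in DESeq2, 59 in limma voom, 17 with the replicate block, 16 with only those groups, and 0 in July, in June and without the 3 libraries (367, 556 and 793 unadjusted). HSC against MPP among Lepr- cells had 451, with 844 in DESeq2, 1238 with the block, 768 without the 3 libraries, 81 in June and 0 in July (798 unadjusted). Among Lepr+ cells there were 77, with 337 in DESeq2, 126 in limma voom, 293 with the block, 4 with only those groups and 0 in July and June (839 and 822 unadjusted). The difference had 0 (529 unadjusted) and 19 in DESeq2. July alone left 2 libraries a group.

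For the leptin signalling list the block gave 4 calls among Lepr- cells and DESeq2 2, and DESeq2 gave 1 in MPP. For the sorting list the block gave 4 among Lepr- and 2 among Lepr+ cells, and DESeq2 1 among Lepr+ cells. For class I receptors DESeq2 and limma voom each gave 2 among Lepr- and 1 among Lepr+ cells, and DESeq2 2 in MPP. Over all genes DESeq2 called 1.3% in MPP, 5.11% among Lepr- and 2.04% among Lepr+ cells. The shares among Lepr- and Lepr+ cells were 3.96% and 0.763% in limma voom and 7.5% and 1.77% with the block. The block changed no other call of a list or member. Low counts limit Lepr most: 9 of 20 libraries had at most 3 counts of it. The part of depth in this was not tested.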

Other observations

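Markers of other blood and vessel cells were summed in the libraries in which the members were read. Endothelial markers (18 genes) summed to 648.0 to 1319 CPM in Lepr+ MPP and 496.0 to 656.5 in Lepr- MPP, and to 873.1 to 1327 and 820.5 to 1390 in Lepr+ and Lepr- HSC. Megakaryocyte and platelet markers (9) summed to 520.7 to 1996 CPM in Lepr+ HSC against 1909 to 4889 in Lepr- HSC, and to 94.6 to 321.8 and 106.7 to 238.5 in Lepr+ and Lepr- MPP. Erythroid markers (11) summed to 57.3 to 198.3 CPM in Lepr+ HSC, 185.3 to 1079 in Lepr- HSC, 28.1 to 247.0 in Lepr+ MPP and 179.1 to 1020 in Lepr- MPP. B and plasma cell markers (10) summed to 84.2 to 4478 CPM in Lepr+ MPP (median 861.8), where Pax5 was at 0, and to 112.3 to 280.1 in Lepr- MPP. They summed to 51.9 to 644.2 CPM in Lepr+ HSC (median 69.6) and 44.6 to 109.8 in Lepr- HSC, so high sums stood in some Lepr+ libraries and not in others. Neutrophil and monocyte markers (12) lay between 433.6 and 1142 CPM, and T and NK cell markers (8) between 51.2 and 231.3 in every group. The HSC and MPP markers (12) summed to 864.4 to 1475 CPM in Lepr- HSC, 1543 to 2211 in Lepr+ HSC, 2993 to 4083 in Lepr- MPP and 2431 to 3752 in Lepr+ MPP. Such sums cannot tell other cells in a sample from sorted cells that express the same genes. Vwf stands in both the endothelial and the megakaryocyte lists. The part of other cells in the values of Lepr, Leprot and Leprotl1 was not tested.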
